A study of Mus musculus with 12 samples.

Results

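The Wnt signalling genes examined here are 57 named genes, of 31618 genes listed in each of the 6 female libraries and 31669 in each of the 6 male libraries. They comprise 18 Wnt ligands, 12 Frizzled and Lrp receptors, 2 Ror receptors, 10 secreted or surface inhibitors, 9 genes of the R-spondin arm and 6 genes that Wnt signalling induces or that act downstream of it, and they were taken by gene symbol. All 57 were listed in every library, 50 were measured in the female and 50 in the male libraries, 47 in both and 4 in neither. RNA sequencing had been done on reproductive tracts of CD1/129 mice aged 3 to 7 months, with RNA of 3 animals pooled into each library and females collected in diestrus. The groups were wild type (WT), Hoxa9,10,11-/- (Hoxa-null), Hoxa9,10,11-/-d9,10,11+/- (compound Hoxa-null), Hoxd9,10,11-/- (Hoxd-null) and Hoxa9,10,11+/-d9,10,11-/- (compound Hoxd-null), each as uterus and as vas deferens, with WT oviduct and WT caudal epididymis beside them. The compound groups carry 1 mutant copy of the other cluster in addition to 2 mutant copies of their own, and the kind of allele is not given in the sources used here. The 4 mutants are given in that order wherever their values stand in a row, and the Hoxa-null library with its compound is called the Hoxa pair and the Hoxd-null library with its compound the Hoxd pair. Each group is 1 library, so no difference has a replicate check and no p-value is given.

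Wnt proteins are secreted lipid-modified ligands that bind a Frizzled receptor and an Lrp coreceptor, which stabilises beta-catenin and lets it switch on target genes with Tcf and Lef factors at their promoters. Secreted inhibitors of the Sfrp, Wif and Dkk families capture the ligands or block the coreceptor, whereas R-spondins bound to Lgr receptors keep the Znrf3 and Rnf43 ubiquitin ligases from removing Frizzled receptors. In the female tract Wnt4, Wnt5a and Wnt7a are known from mouse mutants to be needed for duct formation and patterning, and posterior Hox genes are expressed in nested domains along the ducts of both sexes.

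Values are differences on the deposited log2 scale from WT uterus in females and WT vas deferens in males, which are set to 0, so 1 unit is 2-fold, and they hold only within a sex. Reads could be recovered for 6 of the 50 measured female and 14 of the 50 measured male Wnt genes, because the spacing of low values shows what 1 read was worth, and these reads are inferred, can be fractional where a read overlaps an exon in part, and carry 95% exact intervals for counting error only. A library at the floor holds at most 1 normalised read. The largest depth ratio between libraries was 1.34 among females and 1.92 among males. In the Hoxa pair, Hoxa11 lay at -2.74 and -3.11 in uterus and -2.30 and -3.21 in vas deferens, whereas in the Hoxd pair Hoxd11 lay at -0.60 and -1.58 in uterus and -2.47 and -1.18 in vas deferens. The other targeted genes were less clear. In the Hoxa pair Hoxa10 lay at -1.06 and -0.41 in uterus and -0.81 and -0.88 in vas deferens, and Hoxa9 at -0.34 and 0.27 and at 0.60 and 0.33. In the Hoxd pair Hoxd9 lay at -0.00 and -0.25 in uterus and -1.28 and -1.21 in vas deferens, and Hoxd10 at 0.57 and 0.26 and at -0.27 and 0.49. Hoxd11 was also below WT in the Hoxa pair, at -0.74 and -1.35 in uterus and -0.89 and -1.46 in vas deferens. The labels state no deleted part, so these levels do not check the labels of the Hoxd-null uteri, and the Hoxa-null labels only through Hoxa11. The WT vas deferens library stood apart in holding uterine gland transcripts, with 43.2 reads of Prss28, 171 of Prss29 and 46 of Spink3, where the Hoxd-null and both compound vasa deferentia were at the floor for all 3 and the Hoxa-null vas deferens had 3 reads of Prss28. The WT vas deferens shared run 134 lane 1 with the WT and Hoxa-null uterus. The other mutant libraries were on lane 2 of that run, except the compound Hoxd-null vas deferens, which was on run 136 with the oviduct and the caudal epididymis.

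In the vas deferens, more Wnt genes lay at least 2-fold from WT in the Hoxa pair than in the Hoxd pair, and so did more of all measured genes. In the Hoxa-null vas deferens 8 of 50 measured Wnt genes were higher and 10 lower, where 10.8% and 8.54% of all 16946 measured genes were. In the compound Hoxa-null vas deferens 10 were higher and 12 lower, against 14.0% and 8.49% of all genes. For Hoxd-null 0 were higher and 4 lower, against 3.41% and 4.93%, and for compound Hoxd-null 3 were higher and 5 lower, against 7.7% and 5.35%. The share of Wnt genes that were lower was above the share of all genes in each of these 4 comparisons, and the share that were higher was above it only in the 2 Hoxa mutants. All 4 share the WT library as reference. In the Hoxd pair the lower share rests on 4 and 5 genes. The Hoxa counts include Fzd10, Lgr6, Wnt3 and Wnt9b, which reached the minimum for a measured gene only through libraries where they are high. They also include Dkk2, whose reads are not settled. The shares are therefore a description only. With the Hoxd-null library as the reference in place of the WT library, an alternative chosen after the data were seen, the Hoxa-null vas deferens had 9 higher and 9 lower genes, against 11.2% and 8.07% of all genes, and its compound 10 and 10, against 13.6% and 6.85%. With the mean of the libraries with an intact Hoxd cluster as reference, 5 were higher and 5 lower in the Hoxd-null vas deferens, against 3.51% and 6.71%. By that reference 4 were higher and 2 lower in the compound Hoxd-null vas deferens, against 6.3% and 6.21%. The Hoxd-null share of higher genes was thus below the background against WT and above it against that mean, and the compound Hoxd-null share of lower genes above and then below. The median over the measured Wnt genes was -0.15, -0.23, 0.11 and 0.04 in the 4 mutants, beside 0.008, 0.004, 0.000 and 0.000 over all genes.

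In the uterus too, the Hoxa pair held more lower Wnt genes than the background. For Hoxa-null 5 of 50 Wnt genes were higher and 9 lower, where 6.02% and 7.29% of all 16797 measured genes were. For compound Hoxa-null 7 were higher and 9 lower, against 8.63% and 6.89%. For Hoxd-null 3 were higher and 3 lower, against 6.26% and 5.85%, and for compound Hoxd-null 7 were higher and 4 lower, against 8.0% and 6.35%. The Hoxd-null uterus was at the background share in both directions. The higher genes include Wnt10b in all 4 mutants and Wnt10a in all but Hoxd-null. In the smallest reading of their values, Wnt10b reached the minimum for a measured gene only through the oviduct and Wnt10a only through the Hoxa-null uterus. The counts of higher genes are therefore a description only. The medians over the measured Wnt genes were -0.26, -0.31, 0.04 and 0.13, beside 0.004, 0.000, 0.000 and 0.000 over all genes.

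**Figure D1:**
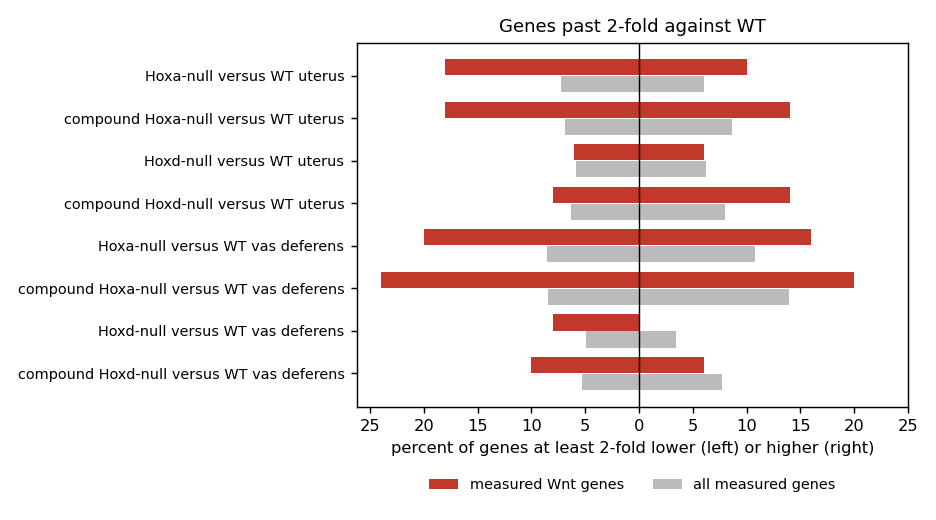
Percent of measured genes at least 2-fold lower (bars to the left) or higher (bars to the right) than WT, for the 50 measured Wnt genes (red) and all measured genes (grey) in each of the 8 mutant libraries. The longest red bars are those of the compound Hoxa-null vas deferens, with 12 Wnt genes lower and 10 higher. Some of these genes were measured only through libraries where they are high.

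**Figure D2:**
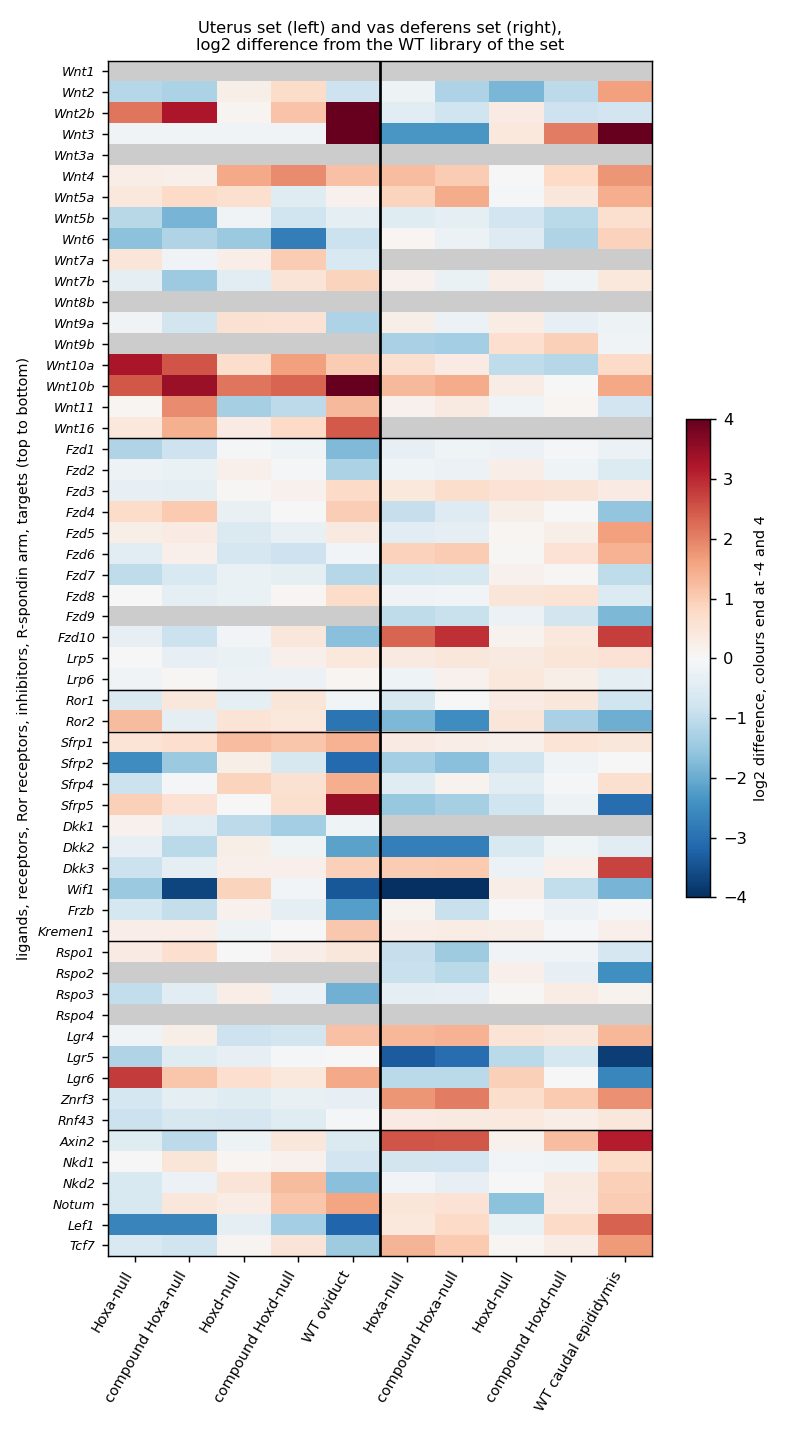
Log2 difference of each of the 57 Wnt genes from the WT library of its set, for the female libraries (left of the line) and the male libraries (right), ordered by role, with colours ending at -4 and 4 and grey for genes not measured. The columns of the Hoxa pair in the vas deferens hold blue cells for Wif1, Lgr5 and Dkk2 and red cells for Axin2 and Fzd10.

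The vas deferens of both Hoxa mutants had more Axin2 and less Wif1 and Lgr5 than any other vas deferens library. Taking the Hoxa pair together, 2 of 50 Wnt genes lay at least 2-fold above all 3 other vas deferens libraries and 6 at least 2-fold below, against 4.08% and 2.31% of all measured genes. The 2 higher genes were Axin2 and Fzd10, and the 6 lower were Wif1, Dkk2, Lgr5, Lgr6, Wnt3 and Wnt9b. Of these, Fzd10, Lgr6, Wnt3 and Wnt9b reached the minimum for a measured gene only through libraries where they are high. Dkk2 is kept although its reads are not settled, and in their smallest reading no library reaches that minimum. The counts of Fzd10, Lgr6, Wnt3, Wnt9b and Dkk2 are therefore no support for a difference. Within run 134 lane 2, which holds the Hoxa-null, compound Hoxa-null and Hoxd-null vas deferens, 7 were higher and 8 lower, against 9.35% and 5.06% of all genes. Without the WT vas deferens the 8 genes still separated the Hoxa pair, at the same distance or a larger one, as leaving out a library must give.

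The promoters of 4 of these genes are shown because these genes separate the Hoxa pair from the other vas deferens libraries. They are the 250 bases before the annotated start, 5′ to 3′ on the gene's strand, from the RefSeq table for build GRCm38.p6, whereas the study's own values were made on mm9. Axin2 is at chr11:108920099-108920348, Fzd10 at chr5:128600856-128601105, Wif1 at chr10:121033754-121034003 and Dkk2 at chr3:132085042-132085291, all on the plus strand.
Axin2: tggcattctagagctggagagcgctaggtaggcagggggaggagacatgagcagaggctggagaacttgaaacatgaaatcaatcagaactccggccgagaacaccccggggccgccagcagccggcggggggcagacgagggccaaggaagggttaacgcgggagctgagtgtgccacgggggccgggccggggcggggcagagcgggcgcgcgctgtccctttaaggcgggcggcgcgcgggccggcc
Fzd10: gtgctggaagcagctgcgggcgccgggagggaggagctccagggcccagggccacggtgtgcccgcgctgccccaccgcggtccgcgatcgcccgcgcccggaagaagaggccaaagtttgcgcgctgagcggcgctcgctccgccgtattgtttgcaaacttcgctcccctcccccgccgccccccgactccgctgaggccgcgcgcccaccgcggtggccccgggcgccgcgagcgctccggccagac
Wif1: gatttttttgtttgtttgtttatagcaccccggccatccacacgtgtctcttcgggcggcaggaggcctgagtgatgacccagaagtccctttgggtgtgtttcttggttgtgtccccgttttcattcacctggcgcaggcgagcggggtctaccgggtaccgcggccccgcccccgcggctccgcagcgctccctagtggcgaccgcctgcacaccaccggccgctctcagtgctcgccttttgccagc
Dkk2: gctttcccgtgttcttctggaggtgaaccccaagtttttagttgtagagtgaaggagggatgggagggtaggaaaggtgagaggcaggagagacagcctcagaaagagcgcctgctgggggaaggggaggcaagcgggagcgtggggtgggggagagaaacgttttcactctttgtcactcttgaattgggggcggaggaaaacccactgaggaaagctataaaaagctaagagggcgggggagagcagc
These windows were searched on both strands for the Tcf and Lef core motif CTTTGAT, which 3.21% of promoters of this length hold, for its variants ending otherwise, CTTTGAA in 4.45%, the form CTTTGTT in 5.03%, and the form CTTTGTA in 3.2%. The posterior Hox core motif TTTATGG is held by 2.43% of promoters, while its rarer form TTTACGA is held by 0.478%. The Tcf and Lef motifs share their first letters, so no 2 of them can match at the same start. None of the 4 windows holds any of these motifs whole. Of 32841 promoters of the same length, 14.8% hold at least 1 of the 4 Tcf and Lef motifs and 2.9% at least 1 of the 2 Hox motifs. Promoters were found for 39 of the 57 Wnt genes, of which 5 hold a Tcf or Lef motif (Dkk1, Fzd7, Lef1, Wnt11 and Wnt5b) and 1 a Hox motif (Wnt5b).

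Among the targets, Axin2, which encodes a scaffold of the beta-catenin destruction complex and is induced by Wnt signalling as negative feedback, lay at 2.51 and 2.48 in the Hoxa pair, 0.17 and 1.22 in the Hoxd pair, and 3.13 in the WT caudal epididymis. The groups did not overlap, and the Hoxa libraries lay 1.26 above the highest of the others, the compound Hoxd-null library. Without the compound Hoxd-null library that gap was 2.31. Tcf7, a transcription factor that partners beta-catenin, lay at 1.37, 1.05, 0.08 and 0.30 in the same order and at 1.69 in the epididymis, so it was past 2-fold in both Hoxa mutants but not 2-fold above the other mutants. Lef1, the related factor, did not pass 2-fold in any mutant vas deferens and lay at 0.43, 0.76, -0.27 and 0.75, with 2.37 in the epididymis. Notum, a secreted enzyme that inactivates Wnt ligands, had 34.6 reads in WT, 37.3 and 41.8 in the Hoxa pair, 8 and 24 in the Hoxd pair and 36.7 in the epididymis. It was low in the Hoxd-null library alone, at 0.317 of the WT level (interval 0.127 to 0.697). Nkd1 and Nkd2, intracellular antagonists acting on Dishevelled, stayed within 2-fold of WT in all 4 mutants, Nkd1 at -0.73, -0.78, -0.12 and -0.18.

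Among the inhibitors, Wif1, which binds Wnt ligands outside the cell, lay at -5.39 and -8.59 in the Hoxa pair, 0.26 and -0.98 in the Hoxd pair, and -1.85 in the epididymis. No other measured Wnt gene in any mutant library lay as far below WT as Wif1 did in these 2 libraries. Dkk2, which binds the Lrp coreceptors, lay at -2.72, -2.75, -0.62 and -0.16, with -0.42 in the epididymis. Its read scale is not settled, and in the smallest reading of its values WT holds 16.5 reads and the 4 mutants 1.92, 1.96, 7.72 and 8.04. In that reading Dkk2 is below the minimum for a measured gene in every male library. Sfrp2 and Sfrp5, soluble decoys that resemble Frizzled receptors, were past 2-fold below WT in both Hoxa mutants as well, Sfrp2 at -1.37 and -1.66 beside -0.81 and -0.13 in the Hoxd mutants. Sfrp5 had 189 reads in WT, 51 and 60.2 in the Hoxa pair, 78.6 and 89.4 in the Hoxd pair and 12 in the epididymis. Its Hoxa-null level was 0.353 of WT (interval 0.254 to 0.483) and its Hoxd-null level 0.581 (interval 0.441 to 0.759), so it was below WT beyond counting error in a mutant of each cluster. Dkk3, a divergent Dkk family member, went the other way, at 1.03 and 1.05 in the Hoxa mutants, -0.25 and 0.20 in the Hoxd mutants and 2.71 in the epididymis. Of the 9 measured inhibitors, 4 were lower and 1 higher in each Hoxa mutant. Of all genes, 8.54% and 8.49% were lower and 10.8% and 14.0% higher in these libraries. Among the 4 lower is Dkk2, whose reads are not settled. In the Hoxd mutants 0 of 9 passed 2-fold, where 4.93% and 5.35% of all genes were lower and 3.41% and 7.7% higher, so 0 is near the background. Sfrp1, Sfrp4, Frzb and Kremen1 stayed between -0.88 and 0.54 in all 4 mutants. Dkk1 was below the minimum for a measured gene, with 5.83 and 4.29 reads in the Hoxd pair, 1.2 in the Hoxa-null library and the floor in WT and compound Hoxa-null vas deferens. In the WT library 1 read is worth 0.70 normalised reads, so its floor can hold 1 read. Such low counts set no lower limit on the ratio of the Hoxd mutants to WT.

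In the R-spondin arm, Lgr5, a receptor for R-spondins and a Wnt target in many stem cells, lay at -3.33, -3.06, -1.08 and -0.71 in the 4 mutants and at -3.77 in the epididymis. All 4 mutants were below WT, and the Hoxa pair differed by -1.98 from the lowest of the others. Lgr6, a related R-spondin receptor, had 46.9 reads in WT, 17.3 and 17.9 in the Hoxa pair, 65 and 26 in the Hoxd pair and 4 in the epididymis. Its levels in the Hoxa mutants were 0.473 (interval 0.255 to 0.839) and 0.481 (interval 0.263 to 0.844) of WT. Lgr6 was measured only through libraries where it is high, so these intervals are no support for a difference between genotypes. Lgr4 and Znrf3 were higher instead, Lgr4 at 1.34, 1.39, 0.56 and 0.46 and Znrf3 at 1.76, 2.05, 0.69 and 1.05. Rspo1 and Rspo2, ligands of this arm, passed 2-fold below WT in the compound Hoxa-null library alone, at -1.43 and -1.09, and lay at -0.92 and -0.90 in the Hoxa-null library, while Rspo3 and the ubiquitin ligase gene Rnf43 stayed between -0.39 and 0.40. The R-spondin receptors thus lay on both sides of WT in the same libraries.

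Among the receptors, Fzd10 had 19 reads in WT, 74 and 116 in the Hoxa pair, 15 and 14 in the Hoxd pair and 68 in the epididymis. Its level was 5.09-fold (interval 3.04 to 8.93) and 7.67-fold (interval 4.69 to 13.2) that of WT in the Hoxa mutants. In the Hoxd mutants it was 1.1-fold (interval 0.519 to 2.28) and 1.35-fold (interval 0.627 to 2.84). The Hoxa intervals lay above the Hoxd intervals, but they cover counting error of 1 library each. Fzd10 was also measured only through libraries where it is high, so these intervals are no support for a difference between genotypes. Fzd6 passed 2-fold in the compound Hoxa-null library at 1.02, beside 0.91 in the Hoxa-null library, and Fzd9 in the Hoxa-null library at -1.02, beside -0.89. The other 9 receptors, including Lrp5 and Lrp6, stayed between -0.92 and 0.69 in all 4 mutants. Ror2, a receptor for Wnt5a outside the beta-catenin branch, had 139 reads in WT, 31 and 20 in the Hoxa pair, 140 and 31 in the Hoxd pair and 19 in the epididymis. It was at 0.292 and 0.181 of WT in the Hoxa pair and 0.409 in compound Hoxd-null vas deferens, whose intervals reach no higher than 0.608, and at 1.4 (interval 1.1 to 1.78) in the Hoxd-null library. Ror2 therefore did not separate the pairs, and Ror1 stayed between -0.64 and 0.44.

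Among the ligands, the 2 lower in both Hoxa mutants are chromosomal neighbours. Wnt9b and Wnt3 start at positions 103588677 and 103635538 of chromosome 11 in the files' mm9 annotation, 46.9 kb apart. Wnt9b had 19 reads in WT, 6 and 6 in the Hoxa pair, 22 and 20 in the Hoxd pair and 9 in the epididymis. Its ratio to WT was 0.413 (interval 0.135 to 1.08) and 0.397 (interval 0.13 to 1.03) in the Hoxa mutants, and both intervals include 1. Wnt3 had 7.02 reads in WT, the floor in both Hoxa mutants, 6.8 and 15.8 in the Hoxd pair and 104 in the epididymis. In the Hoxa mutants 1 read is worth 0.92 and 0.88 normalised reads, so the floor can hold 1 read. No lower limit on the fall of Wnt3 is therefore given. With the floor raised to 5 normalised reads the difference of Wnt3 from WT in both Hoxa mutants was 0.00. Both rest on few reads and are values of these libraries only.

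Wnt10a was the single Wnt gene of 50 that separated the Hoxd mutants of the vas deferens from the 3 others, where 0.142% of all measured genes were higher and 0.626% lower by the same rule. Without the WT library 6 were higher and 3 lower, against 2.99% and 4.86% of all genes. Within lane 2 only the Hoxd-null library against the Hoxa pair is left, which is the lane comparison given above seen from the other side. Wnt10a had 68 reads in WT, 81 and 68 in the Hoxa pair, 24 and 17 in the Hoxd pair and 61 in the epididymis. Its level was 0.49 (interval 0.294 to 0.791) and 0.459 (interval 0.253 to 0.79) of WT in the Hoxd mutants. Its close relative Wnt10b had 25.8, 48.9, 58, 23, 13.8 and 39.8 reads in the same order and was instead higher in the Hoxa mutants, at 2.46-fold (interval 1.5 to 4.13) and 2.8-fold (interval 1.74 to 4.64) of WT. Wnt2 had 64, 43, 22, 13, 17 and 104 reads, and was below WT by at least 2-fold in the compound Hoxa-null and both Hoxd libraries, at 0.432, 0.282 and 0.488. Wnt4 lay at 1.24, 1.0, -0.01 and 0.80 and Wnt5a at 0.90, 1.48, -0.07 and 0.46, with 1.75 and 1.46 in the epididymis. Wnt5b at -1.09 and Wnt6 at -1.21 passed 2-fold only in the compound Hoxd-null library, and Wnt2b, Wnt7b, Wnt9a and Wnt11 stayed between -0.83 and 0.35. Wnt7a was below the minimum, with 7 reads in WT, 16 in the Hoxa-null, 9 in the compound Hoxa-null and 4 in the Hoxd-null vas deferens and the floor in the compound Hoxd-null vas deferens and the epididymis.

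**Figure D3:**
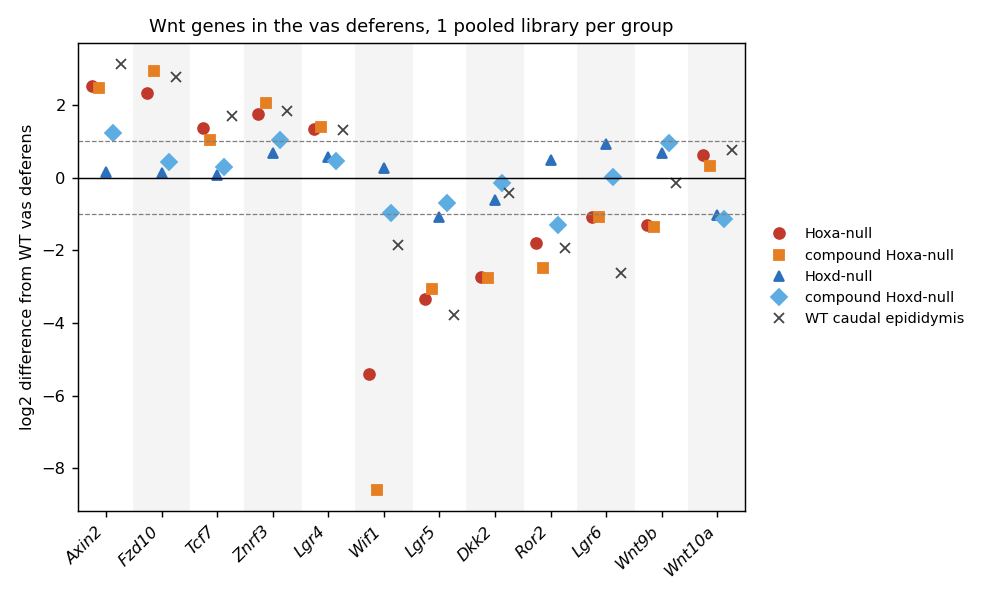
Log2 difference from the WT vas deferens (vertical axis, dashed lines at 2-fold) for 12 Wnt genes, with 1 point for each mutant vas deferens library and a cross for the WT caudal epididymis. The red circles and orange squares of the Hoxa pair lie above the other mutants for Axin2 and Fzd10 and below them for Wif1, Lgr5, Dkk2 and Lgr6. Fzd10, Lgr6 and Wnt9b were measured only through libraries where they are high, and the reads of Dkk2 are not settled.

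**Figure D4:**
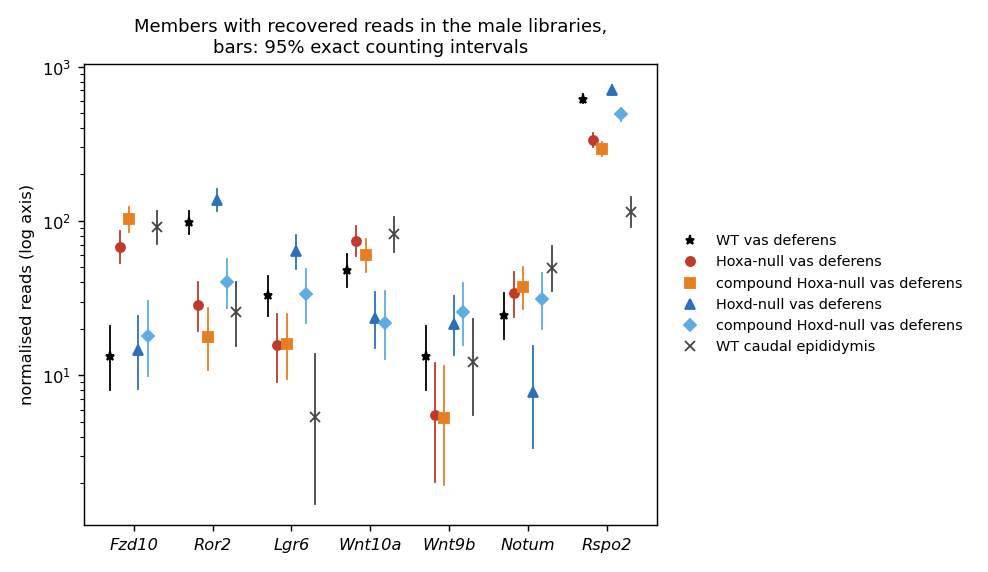
Normalised reads on a log axis for 7 Wnt genes whose reads could be recovered in the male libraries, with 95% exact counting intervals as bars and 1 symbol per library. The intervals of Fzd10 in the Hoxa pair lie above those of WT and of the Hoxd pair, while the intervals of Wnt9b overlap those of WT. The bars do not cover differences between animals, and Fzd10, Lgr6 and Wnt9b were measured only through libraries where they are high.

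Of 70 other Wnt pathway genes, 62 were measured in the male libraries. Across the 4 mutants 6, 5, 2 and 4 were higher and 4, 8, 3 and 1 lower. Of all measured genes, 10.8%, 14.0%, 3.41% and 7.7% were higher and 8.54%, 8.49%, 4.93% and 5.35% lower. The counts lie within a few genes of these shares. Both Hoxa mutants were at least 2-fold above the 3 other libraries for 2 genes and below for 1, where 4.08% and 2.31% of all genes were. Sp5, a transcription factor induced by Wnt signalling, lay at 3.18, 2.76, 0.06 and 0.19 and at 5.13 in the epididymis, and Tnfrsf19, a receptor gene and Wnt target, at 3.18, 2.45, 0.20 and 0.58. Sost, a secreted inhibitor that binds the Lrp coreceptors, lay at -1.61, -1.44, 0.35 and -0.14. Wisp2, a matricellular protein gene of the Ccn family, was below WT in all 4 mutants at -1.46, -3.59, -1.23 and -1.29.

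Cell type markers differed in the same libraries. All 4 adipocyte markers were at least 2-fold higher in 3 mutants, with medians of 2.37 and 2.81 in the Hoxa pair and 2.63 in compound Hoxd-null vas deferens, and 1 of 4 was in Hoxd-null. Of 6 smooth muscle markers, 2, 4, 0 and 2 were lower across the 4 mutants, with medians of -0.87, -1.27, 0.17 and -0.86. Of 4 mesothelial markers, 3 and 4 were lower in the Hoxa mutants, with medians of -1.10 and -1.75, and 0 and 1 in the Hoxd mutants. Of 5 epididymal markers, 4, 3, 1 and 2 were higher across the 4 mutants, with medians of 1.86, 1.62, 0.50 and 0.95, and Lcn5 was lower in the Hoxa pair, at -1.41 and -2.19. Markers of luminal and glandular epithelium stayed within 2-fold, 6 of 6 in all 4 mutants. Of 7 measured markers of basal and stratified epithelium, 1, 3, 0 and 0 were higher, with medians of 0.67, 0.74, -0.14 and 0.15. Of 3 oviduct markers, 1, 3, 1 and 0 were higher and 0, 0, 0 and 1 lower, with medians of 0.92, 2.84, -0.10 and -0.55. In such bulk tissue, fewer cells of a type and less RNA per cell cannot be told apart, and the part of these markers in the Wnt values was not tested.

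The WT caudal epididymis showed 5 of 50 Wnt genes at least 4-fold above the WT vas deferens and 4 below, where 9.34% and 4.02% of all measured genes were. The higher were Wnt3 at 4.82, Axin2 at 3.13, Fzd10 at 2.77, Dkk3 at 2.71 and Lef1 at 2.37, and the lower Lgr5 at -3.77, Sfrp5 at -3.05, Lgr6 at -2.62 and Rspo2 at -2.44. For Wnt3 the ratio was 28.5-fold (interval 13.3 to 72.6) and for Fzd10 6.86-fold (interval 4.08 to 12.1). Wnt3 and Fzd10 fell short of the minimum for a measured gene in the WT vas deferens, and Lgr6 and Sfrp5 in the epididymis. They were measured only through libraries where they are high, so these counts and intervals are a description only. Axin2, Fzd10 and Dkk3 were also above, and Lgr5, Lgr6 and Sfrp5 also below, the WT vas deferens in both Hoxa mutants, whereas Wnt3 was on the opposite side and Wif1 lay at -1.85 in the epididymis and far lower in the Hoxa mutants. The epididymis and the mutants are compared with the same WT library, so these directions are not independent. Of 5 epididymal markers, 3 were at least 4-fold higher and 1, Lcn5 at -3.22, at least 4-fold lower there than in the WT vas deferens, with a median of 4.37.

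Each compound mutant of the vas deferens was also set against its single-cluster counterpart. Between the compound Hoxa-null and the Hoxa-null library 3 of 50 differed by at least 2-fold, against 9.49% of all genes, and all 3 were lower in the compound library, namely Wif1, Wnt2 and Frzb, the last a soluble Wnt-binding inhibitor at -0.88 beside 0.15. Between the compound Hoxd-null and the Hoxd-null library 7 of 50 differed, against 11.9%. Both shares lie within a few genes of the background, so the counts are a description only. Axin2, Lef1, Notum and Wnt3 were higher in the compound Hoxd-null library and Wif1, Ror2 and Wnt2b lower, Wnt2b at -0.83 beside 0.33. Axin2 at 1.22 and Wif1 at -0.98 lay on the same sides of WT there as in the Hoxa mutants.

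In the uterus, the Hoxa mutants had less Lef1, Wif1 and Wnt2 than any other uterus library. By the same rule 0 of 50 Wnt genes lay above and 3 below the 3 other uteri in both Hoxa mutants, where 0.988% and 1.08% of all measured genes were. Within lane 2 the compound Hoxa-null uterus had 4 higher and 7 lower genes against the Hoxd pair, where 5.17% and 4.45% of all genes were. Lef1 lay at -2.65 and -2.63 in the Hoxa pair, -0.36 and -1.37 in the Hoxd pair, and -3.17 in the WT oviduct. All 4 mutants were below WT, and the Hoxa pair differed by -1.26 from the lowest of the others. Wif1 had 161 reads in WT, 67.5 and 14 in the Hoxa pair, 273 and 180 in the Hoxd pair and 19 in the oviduct. Its level was 0.359 (interval 0.266 to 0.48) and 0.0794 (interval 0.0425 to 0.137) of WT in the Hoxa mutants and 1.85 (interval 1.52 to 2.26) and 0.933 (interval 0.75 to 1.16) in the Hoxd mutants. Wif1 was therefore below all 3 others in both Hoxa mutants in the uterus as in the vas deferens, and it was the only measured Wnt gene for which that held in both organs. Wnt2, a ligand made by stroma in many organs, had 41.7 reads in WT, 22, 19, 45 and 83.4 in the mutants in the same order and 29 in the oviduct, with ratios to WT of 0.452 (interval 0.257 to 0.774) and 0.413 (interval 0.227 to 0.726) in the Hoxa mutants.

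The Hoxd mutants of the uterus were separated from the 3 others by Wnt4, which was higher, and Wnt11, which was lower, each 1 of 50 Wnt genes, where 0.911% and 0.327% of all measured genes were. Wnt4, needed for formation of the female ducts and for decidualisation in the uterus, lay at 0.25, 0.19, 1.5 and 1.89 in the 4 mutant uteri and at 1.18 in the oviduct. Wnt11, a ligand that mostly acts outside the beta-catenin branch, lay at 0.07, 1.89, -1.33 and -1.05 and at 1.31 in the oviduct. Windows of 250 bases before annotated starts are shown because they hold a Tcf or Lef motif, in capitals, and belong to genes that separate a pair of mutant uteri. For Lef1 the window is the most downstream of 4 annotated, at chr3:131156044-131156293, with CTTTGTA on the minus strand starting 147 bases before the start, and for Wnt11 it is at chr7:98834862-98835111, with CTTTGAT on the minus strand 51 bases before the start, both on the plus strand of GRCm38.p6.
Lef1: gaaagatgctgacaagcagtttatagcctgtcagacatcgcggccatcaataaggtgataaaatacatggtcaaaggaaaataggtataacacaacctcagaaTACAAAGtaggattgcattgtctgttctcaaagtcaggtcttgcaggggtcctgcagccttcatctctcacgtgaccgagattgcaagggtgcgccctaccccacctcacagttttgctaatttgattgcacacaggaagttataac
Wnt11: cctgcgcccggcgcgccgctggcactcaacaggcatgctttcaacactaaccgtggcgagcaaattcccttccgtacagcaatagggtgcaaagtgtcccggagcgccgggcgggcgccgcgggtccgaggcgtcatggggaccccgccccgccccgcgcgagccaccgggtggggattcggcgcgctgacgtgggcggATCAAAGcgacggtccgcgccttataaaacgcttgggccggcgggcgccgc
The other 3 Lef1 windows and the other Wnt11 window hold none of these motifs, and CTTTGTA and CTTTGAT are found in 3.2% and 3.21% of all promoters of this length. Every window was searched for all 4 Tcf and Lef motifs, and 14.8% of promoters hold at least 1 of them.

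Wnt6, a ligand of epithelia, was at least 2-fold below WT in all 4 mutant uteri, at -1.64, -1.21, -1.50 and -2.78, with -0.86 in the oviduct. Wnt10b was above WT in all 4, at 2.49, 3.45, 2.13 and 2.32, but the WT uterus then holds 1 read in the smallest reading of its values, or 2 if every count is doubled, and the mutants 6.5, 12, 4 and 6 in the smallest. Wnt6 and Wnt10a start 19.6 kb apart on chromosome 1, at 74818466 and 74838090 in mm9, and lay on opposite sides of WT, Wnt10a at 3.25, 2.5, 0.71 and 1.65 from 2 reads in WT in the smallest reading. Wnt2b lay at 2.14, 3.24, 0.10 and 1.14, with 4.51 in the oviduct, and its distance between the Hoxa pair and the others was just under 2-fold. Wnt5b had 336 reads in WT and 182, 102, 281 and 231 in the mutants and was lower in the Hoxa mutants, at 0.467 (interval 0.388 to 0.561) and 0.277 (interval 0.22 to 0.347) of WT. Wnt7a, needed for patterning of the female ducts and gland formation, lay at 0.47, -0.13 and 0.28 in the first 3 mutants and just under 2-fold above WT in the compound Hoxd-null uterus, and Wnt5a at 0.42, 0.78, 0.64 and -0.49. Wnt7b passed 2-fold in the compound Hoxa-null uterus at -1.46 and Wnt16 in the same library at 1.41, and Wnt5a and Wnt9a did so in none. Wnt3 had 1 read in the WT uterus, too few to show a fall.

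Among the other roles in the uterus, Sfrp2 lay at -2.48, -1.50, 0.22 and -0.65, low in the Hoxa mutants, and Sfrp1 passed 2-fold in the Hoxd mutants at 1.22 and 1.10. Dkk1, which blocks the Lrp coreceptors, was lower in the Hoxd pair, at -1.04 and -1.36, and Dkk2 in the compound Hoxa-null uterus at -1.07. Of 11 measured receptors 8 stayed between -0.86 and 0.46 in all 4 mutants, and the exceptions were Fzd1 at -1.19 and Fzd7 at -1.02 in the Hoxa-null and Fzd4 at 1.06 in the compound Hoxa-null uterus. Ror2 was at 1.26 and -0.40 in the Hoxa pair. In the R-spondin arm Lgr6 lay at 2.81, 1.12, 0.68 and 0.43 and Lgr5 at -1.21, -0.50, -0.34 and -0.04, and the other 5 stayed between -0.99 and 0.66. Axin2 lay at -0.48, -1.06, -0.21 and 0.44, Notum at -0.63, 0.44, 0.30 and 1.10, Nkd2 at -0.62, -0.22, 0.52 and 1.25 and Nkd1 at -0.03, 0.48, 0.09 and 0.16. Axin2 therefore passed 2-fold in 1 uterus, below WT, and in 3 vasa deferentia, above WT.

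**Figure D5:**
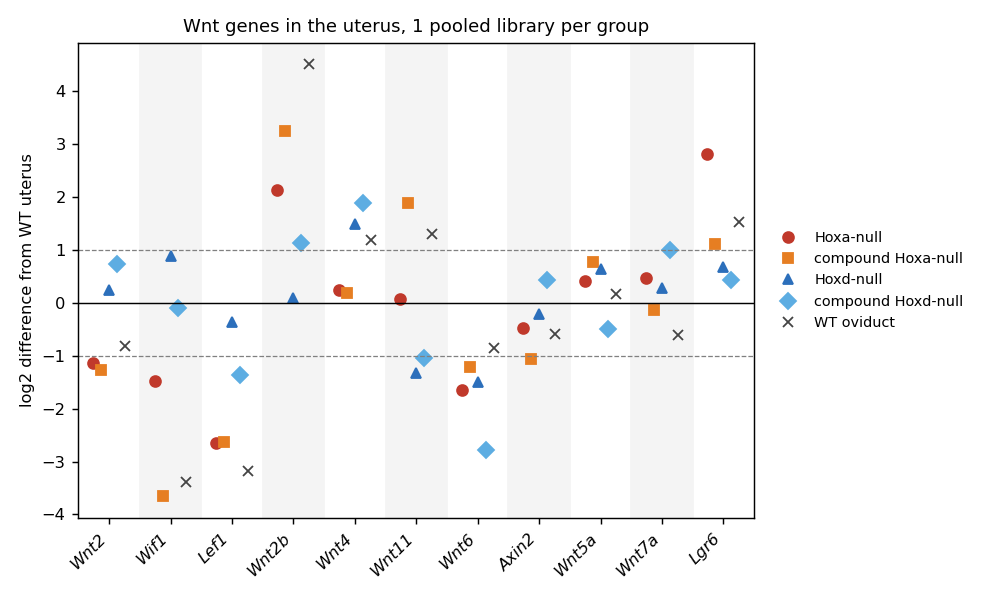
Log2 difference from the WT uterus (vertical axis, dashed lines at 2-fold) for 11 Wnt genes, with 1 point for each mutant uterus library and a cross for the WT oviduct. Among the uteri, Lef1, Wif1 and Wnt2 are lowest in the Hoxa pair, and Wnt4 is highest in the Hoxd pair.

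Of the 70 other pathway genes, 65 were measured in the female libraries, of which 5, 5, 2 and 4 were higher and 7, 6, 3 and 4 lower in the 4 mutants. Of all measured genes, 6.02%, 8.63%, 6.26% and 8.0% were higher and 7.29%, 6.89%, 5.85% and 6.35% lower. The counts lie within a few genes of these shares. Sp5 lay at -3.53, -3.14, -0.60 and -0.61, opposite in direction to the vas deferens of the Hoxa mutants. Mmp7, a matrix metalloproteinase of epithelium and a Wnt target, lay at -2.44, -2.56, 0.73 and 1.55. These 2 were the only other pathway genes at least 2-fold below all 3 others in both Hoxa-null uteri, where 1.08% of all genes were. Sost was below WT in all 4 mutants, at -1.39, -2.57, -2.31 and -1.11.

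Cell type markers also differed in the mutant uteri. All 8 markers of basal and stratified epithelium were at least 2-fold higher in 3 mutants, with medians of 6.61 and 4.20 in the Hoxa pair and 1.80 in compound Hoxd-null uterus, beside -0.01 in Hoxd-null. Of 5 uterine gland markers, 5, 5, 3 and 5 were lower in the 4 mutants, with medians between -11.29 and -6.84. All 4 leukocyte markers were higher in the Hoxd pair, with medians of 1.15 and 1.65, and of 4 adipocyte markers 3, 1, 1 and 4 were lower across the mutants, with medians of -1.18, -0.32, -0.54 and -3.42. Of 6 fibroblast and stromal markers 2, 4, 3 and 0 were higher and 1, 1, 0 and 0 lower, with medians of 0.68, 1.09, 0.93 and 0.47. Of 4 mesothelial markers 2, 2, 0 and 2 were higher, with medians of 1.17, 1.59, 0.13 and 0.94, and 3 of 6 smooth muscle markers were higher in the compound Hoxa-null uterus. Of 4 ovary markers 1, 1, 0 and 1 were higher, with medians of 0.56, 0.26, 0.23 and 0.48, and the gene that passed was Cyp11a1, a steroid-producing enzyme, at 3.27, 1.77, 0.93 and 6.34. The part of these markers in the Wnt values was not tested.

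The WT oviduct had 5 of 50 Wnt genes at least 4-fold above the WT uterus and 6 below, where 8.75% and 3.58% of all measured genes were. The higher were Wnt10b at 8.18, Wnt3 from 1 read in the uterus to 56.8 in the oviduct, Wnt2b at 4.51, Sfrp5 at 3.47 and Wnt16 at 2.45, and for Wnt3 the ratio was 46.4-fold (interval 7.99 to 1.86e+03). Sfrp5 had 8.6 reads in the WT uterus and 117 in the oviduct, a ratio of 10.6-fold (interval 5.38 to 23.7), and between 8 and 19.5 in the mutant uteri. The lower were Wif1 at -3.38, Lef1 at -3.17, Sfrp2 at -3.10, Ror2 at -2.93, Frzb at -2.21 and Dkk2 at -2.14. Wnt3 and Sfrp5 reached the minimum for a measured gene only through the oviduct, as did Wnt10b in the smallest reading of its values, so the count of higher genes is a description only. Oviduct markers were higher in this library for 3 of 3 genes, with a median of 5.14, and 3 of 4 ovary markers were at least 4-fold higher as well, with Cyp11a1 at 10.82, and their part in the Wnt values was not tested. Of the genes past 4-fold in the oviduct, Lef1, Wif1, Sfrp2, Wnt2b and Wnt10b passed 2-fold on the same side of WT uterus in both Hoxa mutants. The oviduct and the mutants share that WT library. Lef1 was also below, and Wnt2b and Wnt10b above, WT uterus in both Hoxd mutants, Wnt2b by only 0.10 in Hoxd-null.

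Between the compound Hoxa-null and the Hoxa-null uterus 8 of 50 Wnt genes differed by at least 2-fold, against 11.7% of all genes. Wnt11, Wnt2b, Notum and Ror1 were higher in the compound library and Wif1, Wnt7b, Lgr6 and Ror2 lower. Between the compound Hoxd-null and the Hoxd-null uterus 4 of 50 differed, against 9.75%, with Wnt2b higher and Wnt6, Lef1 and Wnt5a lower in the compound library. Both counts lie within a few genes of the background and are a description only.

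The genes below the minimum were few. In the female libraries Wnt3a, Wnt8b, Wnt9b, Fzd9, Rspo2 and Rspo4 did not reach 20 normalised reads in any library, and Wnt1 had the same value in all 6. In the male libraries Wnt1, Wnt3a, Wnt7a, Wnt8b, Wnt16, Dkk1 and Rspo4 did not reach it. Rspo2 had 6 reads in the WT uterus and 10, 16, 1 and 4 in the mutants, but 880 in the WT vas deferens and 364, 331, 725 and 379 in the mutant vasa deferentia, and reads of the 2 sexes are from separately scaled sets.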

How the data were processed

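RNA sequencing libraries of 6 female and 6 male tissues, each from RNA pooled from 3 mice, were used. Total RNA (Qiagen RNeasy Mini) went into Illumina TruSeq libraries, per the labels' protocols. The submitters' processing notes name TopHat and mm9. The sources used here give no counting tool, annotation or normalisation. The authors deposited log2 values centred gene by gene, with a median of 0 in each sex, so that females and males cannot be compared in level. From the spacing of low values, reads (in steps of 1/50 read), 1 factor per library and a floor of 1 normalised read were recovered. In genes with a recognised floor, 89.1% of female and 87.8% of male values above it lay on such steps. The factors were fitted to such genes, and some were recognised by these steps, so the shares are no independent check. The recovery was also run on simulated data, with no outcome given here. Library shifts of at most 0.00637 were removed. Genes were measured when the highest library reached 20 normalised reads or the level could not be read. Differences of at least 2-fold (4-fold between organs) were counted, and a pair of libraries with the same homozygous mutation had to lie 2-fold from all 3 others. Every Wnt gene is accounted for; those described in full separate a pair, lie on 1 side in all 4 mutants, are among the 6 largest organ differences, or are Wnt4, Wnt5a, Wnt7a, Axin2, Lef1, Nkd1 and Notum. The genes and marker lists were chosen with earlier results of these data known. Python 3.11.15 with numpy 2.4.6, pandas 2.3.3 and scipy 1.17.1 was used.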

Additional observations from a re-analysis of the deposited data

Results flagged for a closer look

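Lgr6, a receptor for R-spondins, lay on opposite sides of WT in the 2 organs of the Hoxa mutants. Its uterine values were 2.81 (Hoxa-null) and 1.12 (compound Hoxa-null), whereas both vas deferens values were -1.07. In the vas deferens Lgr6 was measured only through libraries where it is high, so its values there are a description only. The difference between the organs was not tested, since each group is 1 library, and the deposited values of the sexes were centred separately.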

How the results depend on the processing

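No paired analysis was possible because each group is 1 library and the labels give no replicate number that pairs libraries. Counts of Wnt genes per comparison and direction stayed within 1.5 times with a minimum of 50 normalised reads and with the floor raised to 5, in 36 of 36 each. With unshifted values 35 of 36 did, and 1 Wnt gene lay above all others in both Hoxa-null uteri, where the main count was 0. With no minimum 30 of 36 did. There, lower genes in the compound Hoxa-null against the Hoxa-null uterus came to 7, higher and lower genes in the compound Hoxd-null against the Hoxd-null uterus to 3 and 5, higher genes to 1 in Hoxd-null and 5 in compound Hoxd-null vas deferens, and genes above the others in both Hoxd-null vasa deferentia to 1. With the mean of the libraries with an intact cluster as reference 14 of 16 did, and higher genes in the Hoxd-null vas deferens came to 5 and lower genes in the compound Hoxd-null vas deferens to 2. Leaving out 1 library can only add genes that separate a pair. It gave 0 to 4 higher and 3 to 5 lower genes for the Hoxa-null uteri, 1 to 4 and 1 to 2 for the Hoxd-null uteri, 3 to 5 and 6 to 8 for the Hoxa-null vasa deferentia and 0 to 6 and 1 to 3 for the Hoxd-null vasa deferentia. Within run 134 lane 1 the Hoxa-null uterus had 5 higher and 9 lower genes than WT, which is the comparison already given. Within lane 2 the counts were 4 and 7 for the compound Hoxa-null uterus, 7 and 4 for the Hoxd-null uteri, 7 and 8 for the Hoxa-null vasa deferentia and 8 and 7 for the Hoxd-null vas deferens, where fewer libraries have to be passed. For single Wnt genes, 99 of 99 differences stayed past 2-fold in unshifted values, and with the floor raised to 5 97 of 99 did, all but those of Wnt3 in both Hoxa-null vasa deferentia (0.00). Depth limits Wnt3, Wnt9b, Wnt10a and Wnt10b in the tissues where they had few reads.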
